A study of Mus musculus with 10 samples.

Results

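Forkhead factors are transcription factors that share a winged-helix DNA-binding domain, and 8 of them that act in embryonic mesenchyme are described here: Foxf1, Foxf2, Foxl1, Foxs1, Foxc1, Foxc2, Foxd1 and Foxd2. They were taken by gene symbol from the 19505 genes named on the arrays, and each had 1 probe set. RNA came from mouse Wolffian ducts, the embryonic tubes that form the epididymis and vas deferens, dissected at 16.5 days post-coitum and held at an air-liquid interface for 72 h. The groups were 4 cultures with 0.5 µM SAG, an agonist of Smoothened, 3 cultures with 25 µM cyclopamine, an antagonist of Smoothened, and 3 vehicle cultures, described as receiving culture medium. No genotype, strain or sex is given in the sources used here, the sample titles name the tissue pronephros, and the series calls the replicates biological. An explant holds epithelium and surrounding stroma together, and all values below are for the whole explant.

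In hedgehog signalling, ligands made by an epithelium bind Ptch1 on neighbouring mesenchymal cells, which releases Smoothened and lets Gli transcription factors activate their targets. In the gut and lung, Foxf1 and Foxl1 are known targets of this pathway in mesenchyme next to the epithelium, and Foxf2 has an overlapping role in the gut. Foxc1 and Foxc2 pattern somites, kidney and the cardiovascular system, Foxd1 marks stromal progenitors of the kidney, Foxd2 is expressed in kidney and facial mesenchyme, and Foxs1 is known from pericytes and the peripheral nervous system.

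The markers and readouts of the explants set the frame. Array medians lay between 7.55 and 7.70 on the log2 scale, and pairs of arrays within a group differed by an SD of 0.35 to 0.60. Gli1, the transcription factor used as a readout of the pathway, had 13.24 to 13.61 log2 units on the SAG arrays, 4.56 to 5.37 on the cyclopamine arrays and 11.43 to 12.63 on the vehicle arrays. The 14 measured genes of mesenchyme and fibroblasts averaged 15.47 to 15.51 per array with SAG, 14.47 to 14.85 with cyclopamine and 15.26 to 15.35 with vehicle. The 14 measured genes of duct epithelium averaged 9.90 to 10.42 with SAG, 11.82 to 12.54 with cyclopamine and 10.80 to 11.76 with vehicle, and Pax8, Cdh1 and Emx2 had signal in every group. Both lists therefore shifted with treatment, and in these bulk samples fewer cells of a type and less RNA per cell cannot be told apart. Their part in the results below was not tested.

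Of the 8 factors, 4 differed among the 3 groups by a moderated F test (limma adjusted p from 0.000266 to 0.000858): Foxf1, Foxc2, Foxd1 and Foxd2. Across the array, 9.33% of probe sets passed that test. In these 4, and in no other of the 8, every SAG array lay above every vehicle array and every vehicle array above every cyclopamine array. That order was found for 1.15% of all probe sets, and the opposite order for 1.21%. It is not independent of the F test. Foxf2, Foxl1, Foxc1 and Foxs1 did not pass (limma adjusted p from 0.199 to 0.447).

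**Figure D1:**
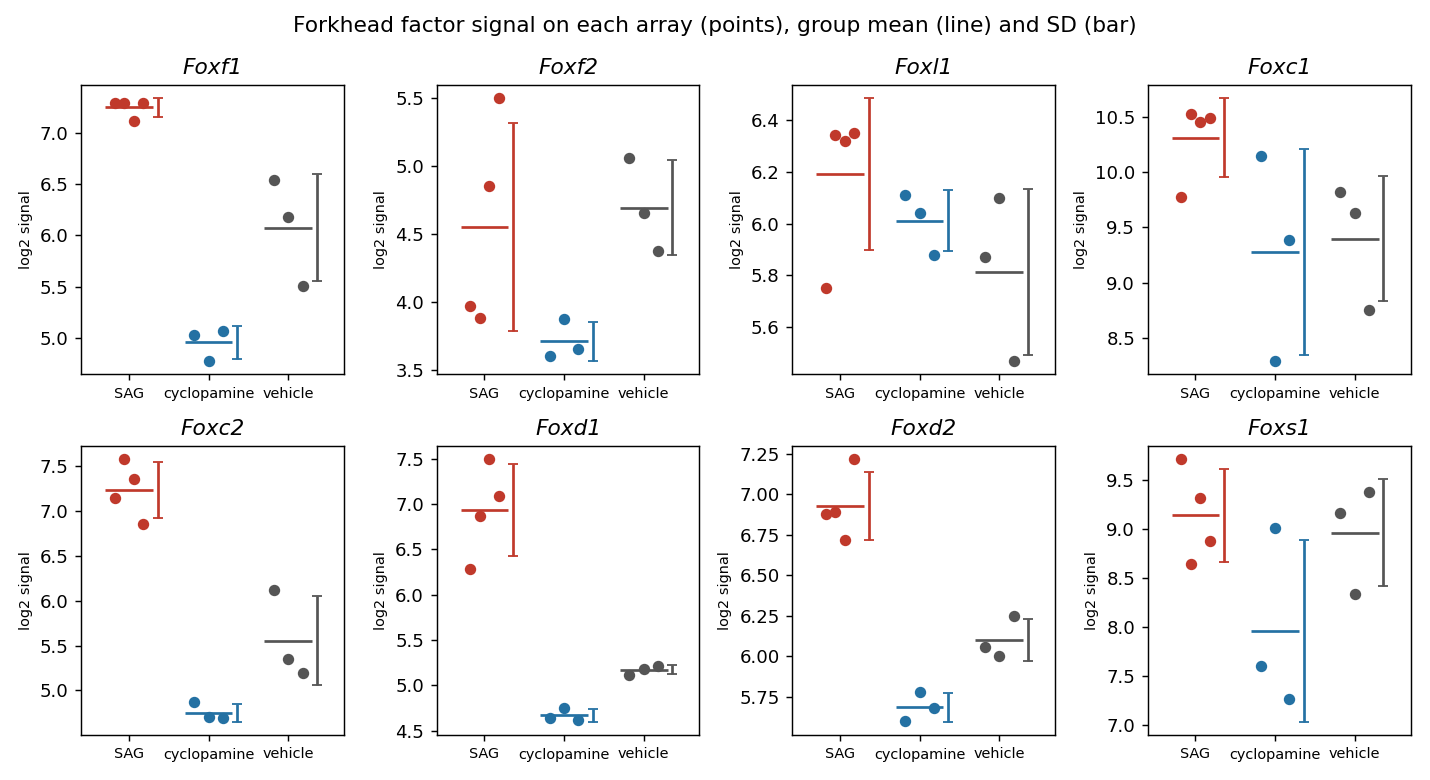
Log2 signal (vertical axes, a separate scale for each gene) of the 8 forkhead factors on each of the 4 SAG, 3 cyclopamine and 3 vehicle arrays, with the group mean as a line and the SD as a bar. Foxf1, Foxc2, Foxd1 and Foxd2 are highest on the SAG arrays and lowest on the cyclopamine arrays, with the vehicle arrays between and no overlap, while Foxl1 stays between 5.47 and 6.35 and Foxs1, Foxc1 and Foxf2 scatter within groups.

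Foxf1, a regulator of mesenchyme in the gut, lung and allantois, moved in both directions. It had 7.29, 7.29, 7.11 and 7.29 log2 units on the SAG arrays, 5.03, 4.78 and 5.07 on the cyclopamine arrays, and 6.54, 6.18 and 5.51 on the vehicle arrays. The SAG and cyclopamine arrays were tightly grouped and the vehicle arrays were spread between them, with vehicle replicate 3 lowest. Foxf1 rose with SAG by 1.17 ± 0.21 log2 units (SE; limma adjusted p = 0.0351) and fell by 1.12 with cyclopamine (SE 0.22; limma adjusted p = 0.0183). SAG against cyclopamine gave 2.29 ± 0.21, a 4.88-fold difference (limma adjusted p = 8.1e-05). The call for SAG against vehicle ended without vehicle replicate 2 or 3, any of the SAG arrays or cyclopamine replicate 1 (adjusted p from 0.0504 to 0.134), and the call for cyclopamine against vehicle without vehicle replicate 1 (0.0605) or 2 (0.0676) or with only those groups in the fit (0.08). The call for SAG against cyclopamine passed under every alternative tried.

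Foxc2, a factor of somites, vessels and lymphatic valves, rose with SAG. Its log2 signal was 7.14, 7.58, 7.36 and 6.85 on the SAG arrays, 4.87, 4.70 and 4.69 on the cyclopamine arrays, and 6.12, 5.35 and 5.19 on the vehicle arrays. Vehicle replicate 1 lay closest to the SAG arrays, and no group overlapped another. The rise with SAG was 1.68 ± 0.23, or 3.20-fold (limma adjusted p = 0.0106), and it did not pass without vehicle replicate 2 (adjusted p = 0.0676). Cyclopamine against vehicle was -0.80 ± 0.25 and did not pass (limma adjusted p = 0.0996). SAG against cyclopamine was 2.48 ± 0.23 (limma adjusted p = 9.23e-05).

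Foxd1, the marker of kidney stromal progenitors, also rose with SAG. Its log2 signal was 6.29, 6.87, 7.50 and 7.09 on the SAG arrays, 4.64, 4.75 and 4.62 on the cyclopamine arrays, and 5.12, 5.18 and 5.22 on the vehicle arrays. Here the SAG arrays were the spread group and the vehicle and cyclopamine arrays were tightly grouped. The rise was 1.76 ± 0.23, or 3.39-fold (limma adjusted p = 0.00739), within the errors of that of Foxc2, and it passed with any single array left out (highest adjusted p 0.0457). Cyclopamine against vehicle was -0.50 ± 0.24 (95% interval -1.04 to 0.04), which did not pass (limma adjusted p = 0.301) although the arrays did not overlap. SAG against cyclopamine was 2.27 ± 0.23 (limma adjusted p = 0.000147).

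Foxd2, a related factor of kidney and facial mesenchyme, moved less. Its log2 signal was 6.88, 6.89, 6.72 and 7.22 on the SAG arrays, 5.60, 5.78 and 5.68 on the cyclopamine arrays, and 6.06, 6.0 and 6.25 on the vehicle arrays. No group overlapped another, and the cyclopamine arrays lay closer to the vehicle arrays than the SAG arrays did. It rose with SAG by 0.82 ± 0.14, or 1.76-fold (limma adjusted p = 0.0287), and cyclopamine against vehicle was -0.42 ± 0.15 (limma adjusted p = 0.156). SAG against cyclopamine was 1.24 ± 0.14 (limma adjusted p = 0.000291). The call for SAG against vehicle ended without any of the vehicle arrays or without SAG replicate 1, 2 or 4 (adjusted p from 0.0521 to 0.176).

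Foxl1, which marks stromal cells under the gut epithelium, did not pass in any comparison. It had 5.75, 6.34, 6.32 and 6.35 log2 units on the SAG arrays, 6.11, 6.04 and 5.88 on the cyclopamine arrays, and 5.87, 6.10 and 5.47 on the vehicle arrays. All groups overlapped, and SAG replicate 1 was apart from the other SAG arrays. SAG against vehicle was 0.38 (95% interval -0.04 to 0.80), cyclopamine against vehicle 0.20 (-0.25 to 0.65) and SAG against cyclopamine 0.18 (-0.24 to 0.60), so a difference between SAG and cyclopamine as large as that of Foxf1 lay outside the interval. Its mean over all arrays stood at percentile 36.1 of probe set means. A flat signal near background could give a similar interval, and whether Foxl1 was expressed was not tested. Limma adjusted p-values for these differences were 0.516, 0.661 and 0.637.

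Foxf2, the closest relative of Foxf1, was dim. Its log2 signal was 3.97, 3.88, 4.85 and 5.50 on the SAG arrays, 3.60, 3.87 and 3.65 on the cyclopamine arrays, and 5.06, 4.65 and 4.37 on the vehicle arrays. The SAG arrays spanned the vehicle range, the cyclopamine arrays lay lowest, and the mean over all arrays stood at percentile 10.3 of probe set means. Cyclopamine against vehicle was -0.99 ± 0.37 (limma adjusted p = 0.180) and SAG against vehicle -0.14 ± 0.35 (limma adjusted p = 0.923). SAG against cyclopamine was 0.84 ± 0.35 (limma adjusted p = 0.170).

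Foxc1, which acts with Foxc2 in somites and kidney, varied widely. Its log2 signal was 9.78, 10.53, 10.46 and 10.49 on the SAG arrays, 10.15, 8.29 and 9.39 on the cyclopamine arrays, and 9.82, 9.63 and 8.75 on the vehicle arrays. Each pair of groups overlapped. SAG against vehicle was 0.91 ± 0.40, cyclopamine against vehicle -0.13 ± 0.43 and SAG against cyclopamine 1.04 ± 0.40 (limma adjusted p = 0.444, 0.915 and 0.139). Without cyclopamine replicate 1 the difference between SAG and cyclopamine was 1.48 and passed (limma adjusted p = 0.0390). Over all removals of a single array it ran from 0.55 to 1.48 (highest limma adjusted p 0.375).

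Foxs1, the pericyte factor, gave differences that changed with single arrays left out. It had 9.72, 8.64, 9.32 and 8.88 log2 units on the SAG arrays, 7.60, 9.01 and 7.26 on the cyclopamine arrays, and 9.17, 8.34 and 9.38 on the vehicle arrays. Cyclopamine replicate 2 lay among the SAG and vehicle arrays, and the other cyclopamine arrays lay below both. Cyclopamine against vehicle was -1.01 ± 0.45 (limma adjusted p = 0.256) and SAG against cyclopamine 1.18 ± 0.42 (limma adjusted p = 0.105). Without cyclopamine replicate 2 these were -1.54 and 1.71, and both passed (limma adjusted p = 0.0325 and 0.00819). Over all removals of a single array they ran from -1.54 to -0.66 (highest limma adjusted p 0.524) and from 0.83 to 1.71 (highest 0.32). The 12 measured genes of mural cells and pericytes averaged 9.22 on cyclopamine replicate 2, against 8.98 and 8.58 on the other cyclopamine arrays. On vehicle replicates 1, 2 and 3 they averaged 9.92, 9.78 and 9.44, lowest where Foxs1 was highest, and on the SAG arrays 9.59 to 9.74. Among those genes Cspg4, the NG2 proteoglycan, fell with cyclopamine (-2.29, limma adjusted p = 0.00161), Anpep, an aminopeptidase, rose (1.34, limma adjusted p = 0.0458), and 10 did not pass. The median of these 12 genes with cyclopamine was -0.89, and 8 had an unadjusted p below 0.05 in limma.

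Counted by comparison, 4 of 8 factors rose with SAG and 0 fell, while 0.73% of all probe sets passed in either direction, 0.45% higher and 0.279% lower. Those 4 also lay above vehicle without overlap and 0 lay below, beside 12.9% of probe sets without overlap (6.25% above, 6.63% below). With cyclopamine 1 of 8 fell and 0 rose, beside 5.12% of all probe sets that passed, 2.95% lower and 2.17% higher. Without overlap, 5 lay below vehicle (Foxf1, Foxf2, Foxc2, Foxd1 and Foxd2) and 0 above, beside 23.1% of probe sets (11.9% below, 11.2% above). Between SAG and cyclopamine 4 of 8 were higher with SAG and 0 lower, beside 11.3% that passed, 5.42% higher and 5.92% lower. The same 5 lay above cyclopamine without overlap and 0 below, Foxf2 by the narrow gap of 3.88 on the lowest SAG array to 3.87 on the highest cyclopamine array, beside 21.2% of probe sets (10.7% above, 10.5% below). Median differences over the 8 factors were 0.87 for SAG against vehicle, -0.65 for cyclopamine against vehicle and 1.21 for SAG against cyclopamine, where those over all probe sets were 0.01, 0.02 and 0.01. The comparisons share their arrays pairwise, so these counts are not independent of each other. The count for SAG against vehicle was 1 without vehicle replicate 2 and 0 with unmoderated variances.

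**Figure D2:**
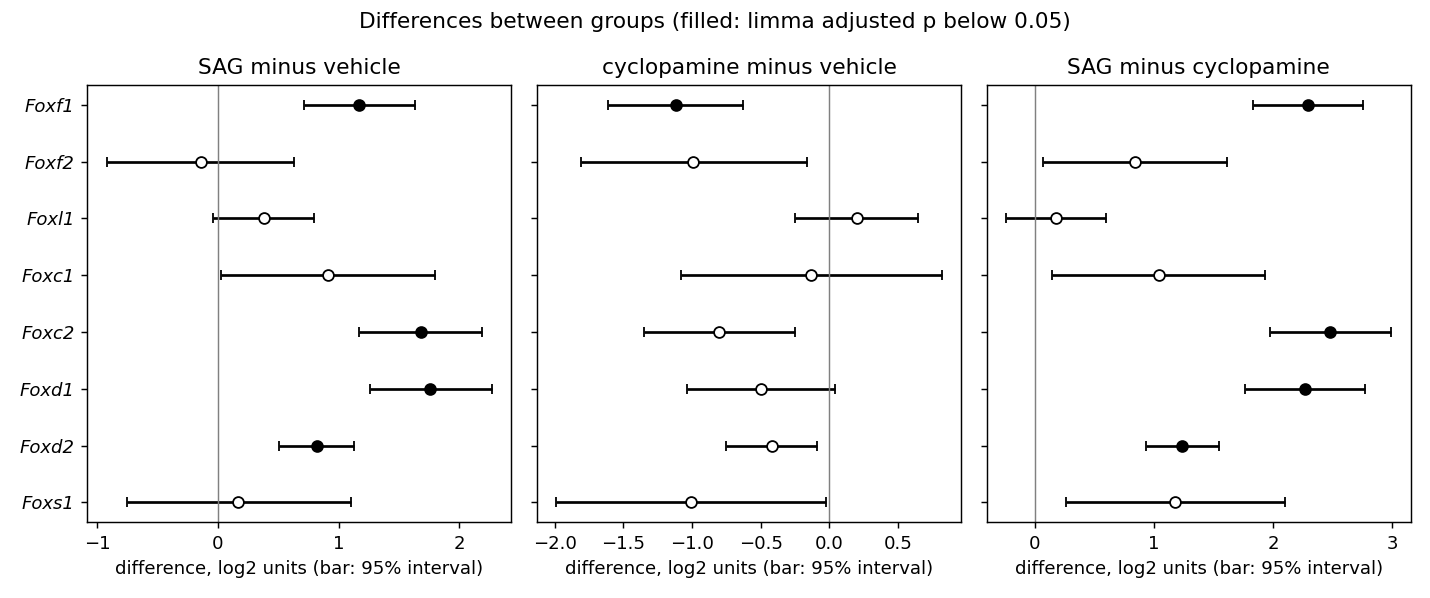
Difference between groups in log2 units (horizontal axes) for each forkhead factor (rows), with 95% intervals of the limma fit and filled points for adjusted p below 0.05. Foxf1 alone among the 8 is filled in all 3 panels, and Foxc2, Foxd1 and Foxd2 are filled for SAG minus vehicle and SAG minus cyclopamine.

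The vehicle level was then placed between the agonist and the antagonist. On the log2 scale, with the cyclopamine mean set at 0% and the SAG mean at 100%, the vehicle mean lay at 49.0% for Foxf1, 33.9% for Foxd2, 32.3% for Foxc2 and 22.2% for Foxd1. For the pathway readouts it lay at 82.2% for Gli1, 72.6% for the receptor gene Ptch1 and 56.7% for Hhip, which encodes a hedgehog-binding membrane protein. The contrast of SAG plus cyclopamine minus 2 times vehicle tested whether vehicle was off the midpoint in log2 units. Places and midpoints depend on that scale. On unlogged signals, which were not examined, the side to which vehicle lies nearer can differ. Gli1 (-5.43 ± 0.50, limma adjusted p = 0.0022) and Ptch1 (-2.57 ± 0.40, limma adjusted p = 0.0272) passed, with vehicle nearer SAG in log2 units. The third readout, Hhip, did not pass (-1.40 ± 0.60, limma unadjusted p = 0.039, adjusted p = 0.432). None of the 8 forkhead factors passed in limma, and 1 had an unadjusted p below 0.05, Foxd1 (1.26 ± 0.41, unadjusted p = 0.0114, adjusted p = 0.276), with vehicle nearer cyclopamine. Across the array, 0.315% of probe sets passed this test and 10.8% had an unadjusted p below 0.05. Whether the forkhead factors and the readouts differ in this respect was not tested. Means of Foxf1 (4.96), Foxc2 (4.75), Foxd1 (4.67) and Gli1 (4.98) with cyclopamine, and of Foxd1 with vehicle (5.17), stood under the 25th percentile of the array's probe set means (5.19), among its dim probe sets.

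Foxf1, Foxc2 and Foxl1 are neighbours on mouse chromosome 8, in that order in the RefSeq table for GRCm38.p6 with Mthfsd between Foxf1 and Foxc2. Mthfsd did not pass in any comparison: SAG against vehicle was -0.09, cyclopamine against vehicle -0.18 and SAG against cyclopamine 0.09 (limma adjusted p = 0.905, 0.674 and 0.826). The signal of Foxf1 minus that of Foxl1 was 1.05 ± 0.33 log2 units on the SAG arrays (SD, n = 4), -1.05 ± 0.22 on the cyclopamine arrays and 0.27 ± 0.35 on the vehicle arrays (n = 3 each). Foxc2 minus Foxl1 was 1.04 ± 0.39 with SAG, -1.25 ± 0.08 with cyclopamine and -0.26 ± 0.50 with vehicle. Both gaps were highest with SAG and lowest with cyclopamine. Foxf1 minus Foxc2 was 0.01 ± 0.35 with SAG, 0.20 ± 0.15 with cyclopamine and 0.52 ± 0.27 with vehicle. These pairs were chosen after the values were seen, so the gaps are given as a description, with no test.

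**Figure D3:**
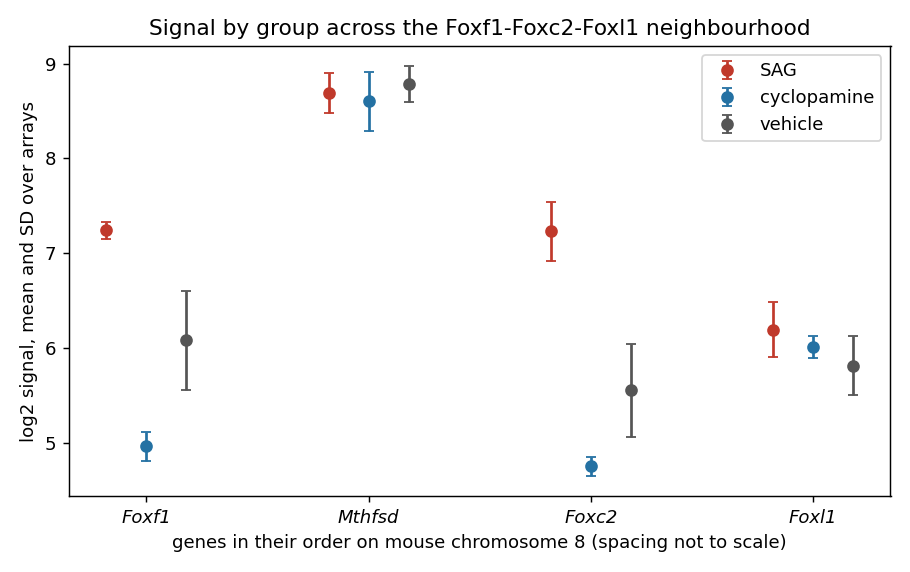
Log2 signal (vertical axis; mean and SD over 4 SAG, 3 cyclopamine and 3 vehicle arrays) of 4 neighbouring genes in their chromosomal order. Groups separate at Foxf1 and Foxc2, and lie close together at Mthfsd and Foxl1, where SAG minus cyclopamine was 0.09 and 0.18. Heights of different genes are not comparable, because each probe set has its own scale.

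The other pairs were close relatives. Foxf1 minus Foxf2 was 2.69 ± 0.80 with SAG, 1.25 ± 0.30 with cyclopamine and 1.38 ± 0.21 with vehicle. Foxc1 minus Foxc2 was 3.08 ± 0.42 with SAG, 4.52 ± 0.86 with cyclopamine and 3.85 ± 0.38 with vehicle. Foxd1 minus Foxd2 was 0.01 ± 0.57 with SAG, -1.01 ± 0.05 with cyclopamine and -0.93 ± 0.10 with vehicle. The gap moved most with SAG for the Foxf and Foxd pairs. These pairs too were chosen with values known, so their gaps are given as a description, with no test result.

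Promoters of 4 factors could be read from RefSeq (build GRCm38.p6), those of Foxd1 and Foxd2, which rose with SAG, and those of Foxf2 and Foxc1, which did not pass. They are shown so that a factor of each kind can be compared, as the 250 bases before the annotated start, 5′ to 3′ on the gene's strand, with CG pairs in capitals.
Foxd1 (chr13:98353995-98354244, plus strand): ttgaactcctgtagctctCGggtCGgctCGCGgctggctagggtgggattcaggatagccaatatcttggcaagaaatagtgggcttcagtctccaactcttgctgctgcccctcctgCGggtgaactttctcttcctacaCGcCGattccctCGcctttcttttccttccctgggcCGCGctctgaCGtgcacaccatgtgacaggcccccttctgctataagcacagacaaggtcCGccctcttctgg
Foxd2 (chr4:114908899-114909148, minus strand): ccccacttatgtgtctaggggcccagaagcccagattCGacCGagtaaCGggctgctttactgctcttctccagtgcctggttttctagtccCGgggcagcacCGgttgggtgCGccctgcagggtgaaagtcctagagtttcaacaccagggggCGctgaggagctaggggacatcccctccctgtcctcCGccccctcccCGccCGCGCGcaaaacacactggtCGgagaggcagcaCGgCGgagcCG
Foxf2 (chr13:31625566-31625815, plus strand): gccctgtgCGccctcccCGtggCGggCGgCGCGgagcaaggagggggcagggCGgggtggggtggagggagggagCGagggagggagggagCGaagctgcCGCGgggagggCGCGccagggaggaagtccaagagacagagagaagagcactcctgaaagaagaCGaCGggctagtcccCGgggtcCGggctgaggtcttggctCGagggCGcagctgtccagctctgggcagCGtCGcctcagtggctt
Foxc1 (chr13:31806396-31806645, plus strand): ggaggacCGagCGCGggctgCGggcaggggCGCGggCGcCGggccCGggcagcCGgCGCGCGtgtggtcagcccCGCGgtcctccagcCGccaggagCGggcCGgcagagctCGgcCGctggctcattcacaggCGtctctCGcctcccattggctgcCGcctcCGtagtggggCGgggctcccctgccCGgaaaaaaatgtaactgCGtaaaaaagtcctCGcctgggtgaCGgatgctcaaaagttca
The promoters of Foxd1 and Foxd2 held 12 and 16 CG pairs and those of Foxf2 and Foxc1 21 and 29, against a median of 6 over the 32851 promoters of the table. G and C made up 57.2% and 64.4% of the bases for Foxd1 and Foxd2, and 71.6% and 70.8% for Foxf2 and Foxc1, against a median of 52.4%. All 4 windows were searched on both strands for the Gli site GACCACCCA, its shorter core CCACCCA, which lies inside it, and the forkhead site GTAAACA. None of these strings occurred in the 4 windows. They occurred in 0.225%, 8.11% and 3.17% of all promoter windows of that length. The absence of these letters from a short window says nothing of binding elsewhere.

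Among the remaining forkhead genes, 31 of 36 were measured. None passed for SAG against vehicle in limma, with 5 at an unadjusted p below 0.05, and the widest differences were those of Foxp2 (1.72, limma adjusted p = 0.300) and Foxl2 (-0.93, limma adjusted p = 0.279). With cyclopamine 2 fell, Foxl2, the ovarian granulosa cell factor (-1.98, limma adjusted p = 0.00832), and Foxo1, a target of insulin signalling (-0.91, limma adjusted p = 0.0269). Between SAG and cyclopamine Foxo1 (1.25, limma adjusted p = 0.00145) and Foxn2 (0.76, limma adjusted p = 0.00905) were higher with SAG. Foxp2 had a wider difference there (2.00) but missed the threshold (limma adjusted p = 0.0565). Those of Foxp2 and Foxo1 exceeded the 1.24 of Foxd2. Foxo1, Foxl2 and Foxn2 passed the moderated F test (limma adjusted p = 0.00422, 0.0101 and 0.023). Foxn2 also had its SAG arrays above its vehicle arrays and those above its cyclopamine arrays, without overlap. That order was therefore not confined to the 8 factors. The median difference of these 31 genes was 0.10 with SAG, 0.02 with cyclopamine (each against vehicle) and 0.08 between SAG and cyclopamine.

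**Figure D4:**
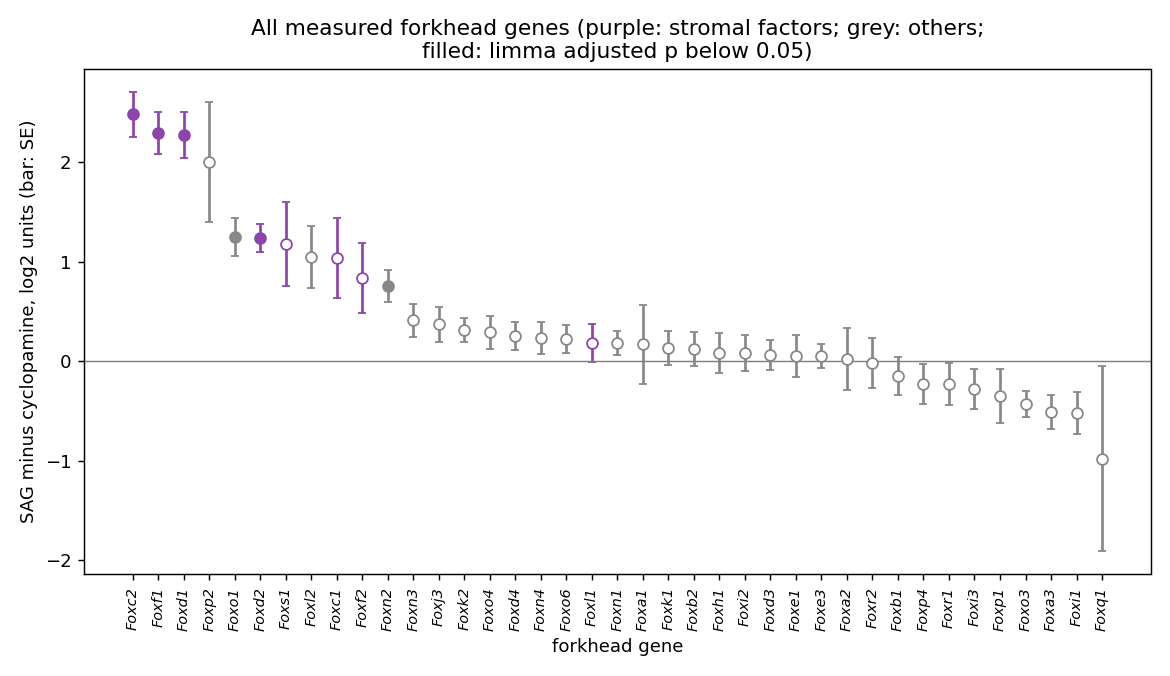
SAG minus cyclopamine in log2 units with the SE (vertical axis) for all 39 measured forkhead genes (horizontal axis, ordered by the difference), purple for the 8 stromal factors, grey for the other 31, filled where the limma adjusted p was below 0.05. Foxc2, Foxf1 and Foxd1 stand highest at 2.27 to 2.48, and Foxl1 lies among the grey points at 0.18.

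Signals and matrix genes linked to these factors in mesenchyme were described from a list of which 18 of 19 were measured. With SAG against vehicle 0 passed in limma, with 8 at an unadjusted p below 0.05, the widest being those of Fgf7, a fibroblast growth factor (1.85, limma adjusted p = 0.0818), and Sfrp2, a secreted Wnt antagonist (-1.74, limma adjusted p = 0.175). With cyclopamine 4 fell: Bmp4, a ligand placed downstream of Foxf and Foxl1 factors in the gut (-2.07, limma adjusted p = 0.00669), the collagen gene Col6a1 (-0.72, 0.0321), the ligand Wnt5a (-1.47, 0.0446) and Bmp2 (-0.64, 0.0464). Between SAG and cyclopamine 7 were higher with SAG, Bmp4 (2.38), Col6a1 (1.01) and Bmp5 (1.59) among them, and 2 lower, Fgf10 (-1.86) and Bmp7 (-1.62), the last named after its value was seen. The list median was 0.04 with SAG, -0.30 with cyclopamine (each against vehicle) and 0.21 between SAG and cyclopamine.

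Other transcription factors of urogenital stroma were measured for 19 of 20 listed genes. None passed for SAG against vehicle in limma, with 1 at an unadjusted p below 0.05, while 2 fell with cyclopamine: Tcf21, a stromal helix-loop-helix factor (-2.40, limma adjusted p = 0.00021), and Twist2 (-2.43, limma adjusted p = 0.000658). Between SAG and cyclopamine 4 were higher with SAG, including Tcf21 (2.64), Twist2 (2.65) and Nr2f2, a nuclear receptor (0.65), and Tbx3 was lower (-0.78, limma adjusted p = 0.0415). The Tcf21 vehicle mean was off the midpoint in log2 units, nearer SAG (limma adjusted p = 0.0337). For these 19 factors 0 of 19 rose with SAG, against 4 of 8 for the forkhead factors, and the difference between the lists was not tested. Both lists were chosen with earlier results of these data known, so the 2 counts do not show that the rise is particular to forkhead factors.

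Marker lists of the explant's tissues moved beside the forkhead factors. With SAG 0 of 14 mesenchyme and fibroblast genes passed (median 0.28, 6 at an unadjusted p below 0.05 in limma), and 2 of 14 duct epithelium genes fell (median -1.19). With cyclopamine 6 mesenchyme genes fell, Thy1, a fibroblast surface protein, at -3.06 and Postn, periostin, at -2.04 among them, and 1 rose, Dpt, dermatopontin (1.73). Smooth muscle genes fell with cyclopamine in 12 of 15 cases (median -2.32) and 0 of 15 passed with SAG (median -0.30, 6 at an unadjusted p below 0.05 in limma). Of 12 endothelial genes 1 fell with cyclopamine, the VEGF receptor gene Kdr (-1.44, limma adjusted p = 0.027), and 0 passed with SAG (1 at an unadjusted p below 0.05 in limma). The part of these shifts in the forkhead differences was not tested. The rises of Foxf1, Foxc2, Foxd1 and Foxd2 with SAG were 0.82 to 1.76 log2 units. The mesenchyme genes, with their median of 0.28, ran from -1.49 for Dpt to 1.29 for Postn with SAG. That median does not measure the share of stroma in an explant.

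For each of the 4 factors that passed the F test, the genes most alike were found by Pearson correlation over the 10 arrays among 18536 other named genes, as a description set mainly by the 3 groups. Foxf1 was most like Timp3, an inhibitor of metalloproteinases (r = 0.982), Pdzd2 (0.979) and the growth factor gene Tgfb3 (0.978), which moved by 1.01 to 1.46 with SAG and by -1.46 to -1.13 with cyclopamine. Foxc2 was most like Ppp1r13b (0.981), Cyth3 (0.981) and Hhat, the acyltransferase of hedgehog ligands (0.979). These rose with SAG by 1.01 to 1.27 and were at -0.84 to -0.38 with cyclopamine, where only Ppp1r13b passed. Foxd1 was most like the secreted C1q-domain gene C1qtnf3 (0.982), Enc1 (0.981) and the leptin receptor gene Lepr (0.980), which rose with SAG by 1.92 to 3.66 log2 units and were at -0.85 to -0.28 with cyclopamine, where none passed. Foxd2 was most like Spats2 (0.973), Trabd2b (0.971) and Dennd4a (0.968).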

How the data were processed

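RNA from 10 explant cultures was labelled by the GeneChip WT Plus protocol and hybridized to Affymetrix arrays, per the labels' protocols. The values deposited by the authors are log2 signals of 22206 probe sets, the log2 base being inferred from their range (2.95 to 18.7). The sources used here do not give summarization, normalization or genome build. A platform table named 19572 probe sets.

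A mean per group was fitted to all 10 arrays with limma 3.58.1 in R 4.3.3 (7 residual degrees of freedom, prior 3.7, no filter), each p being two-sided and adjusted by Benjamini-Hochberg across the 22206 probe sets, called below 0.05. The number of arrays limits precision. In simulated data 52.7% of changes of 1 log2 unit and 91.3% of changes of 2 were recovered for SAG against vehicle.

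The forkhead members and the 14 gene lists were chosen with earlier results of these data known. Named were the members, the readouts, up to 4 list genes by smallest p that passed (otherwise the 2 largest differences), neighbours and the 3 most alike genes. Alternatives are given in the closing section.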

Additional observations from a re-analysis of the deposited data

Results flagged for a closer look

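Within the 4 SAG arrays, 3 factors had 1 array apart from the other 3 by Dixon's criterion, which sets the gap against the range of those 4 arrays, a pattern that chance gives in about 1 of 20 such groups. SAG replicate 3 was lowest for Foxf1 at 7.11, where the other SAG arrays all stood at 7.29, and the SD over the 4 was only 0.09. SAG replicate 1 was lowest for Foxl1 at 5.75 and for Foxc1 at 9.78. The groups of 3 arrays were not examined in this way.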

How the results depend on the processing

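The counts of forkhead factors that passed between SAG and cyclopamine (4; 4 to 5 with single arrays left out), by the F test (4; 4 to 5) and for an off-centre vehicle (0; 0 to 0) stayed within 1.5 times under every alternative. The count for SAG against vehicle (4) was 0 with the replicate block, 0 with unmoderated variances and 1 at a threshold of 0.01, and 1 to 4 with single arrays left out. The count for cyclopamine against vehicle (1) was 0 with only the groups compared, 0 with unmoderated variances, 0 at a threshold of 0.01 and 2 at a threshold of 0.1, and 0 to 2 with single arrays left out. Causes were not tested, apart from the thresholds and the smaller samples. The labels do not say whether equal replicate numbers mark paired cultures. Deviations from group means correlated above 0.1 in 1 of 9 same-numbered pairs (-0.19 to 0.24), and pairs with other numbers gave -0.22 to 0.23. Of 9 arrays 2 correlated best with their own number. So few correlations over whole arrays do not settle whether the arrays are paired. With the block, adjusted p for SAG against vehicle was 0.149 for Foxf1, 0.0558 for Foxc2, 0.058 for Foxd1 and 0.174 for Foxd2, and the differences equalled those without SAG replicate 4, whose number no other group has. No called difference of a factor changed direction. Median centring and further quantile normalization left each count as it was. Foxf2 was not tested with the dimmest 25% of probe sets left out. Low signal limits Foxf2 in all groups, Foxf1 and Foxc2 with cyclopamine, and Foxd1 with cyclopamine and vehicle. Foxl1 lay under the median of probe set means (7.62) in all groups, which limits what its flat signal can show.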

Other observations

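Further marker lists gave these counts. Of 14 duct epithelium genes 6 rose with cyclopamine, among them Pax2 (3.48, limma adjusted p = 0.00264) and Pax8 (1.34, limma adjusted p = 0.00974), transcription factors of the duct, and 2 fell with SAG (medians 1.09 with cyclopamine and -1.19 with SAG; 12 and 11 at an unadjusted p below 0.05), the claudin gene Cldn7 (-1.56, limma adjusted p = 0.038) and the splicing regulator gene Esrp1 (-1.40, limma adjusted p = 0.0383). Lhx1 (-0.90, limma adjusted p = 0.0845) and Ret (-1.55, limma adjusted p = 0.302) of that list were lower with cyclopamine and did not pass. Lhx1 is among the 12 with an unadjusted p below 0.05, and both genes were named after their values were seen. Of 18 cell cycle genes 5 fell with cyclopamine, including E2f1 (-0.99, limma adjusted p = 0.00515) and the cyclin gene Ccna2 (-1.73, limma adjusted p = 0.00689), and 0 passed with SAG (1 at an unadjusted p below 0.05 in limma). Of 9 macrophage genes 2 rose with cyclopamine, Cd14 (2.33, limma adjusted p = 0.00849) and Itgam (2.7, limma adjusted p = 0.0369), and 7 did not pass, with Aif1 at -1.63 (limma adjusted p = 0.0506), Cx3cr1 at -1.82 (limma adjusted p = 0.102), Csf1r at -0.03 and Fcgr1 at 0.04, named after their values were seen. Of 7 mesothelial genes 1 rose, Lrrn4 (2.7, limma adjusted p = 0.0431), and of 8 skeletal muscle and cartilage genes 1 fell, the collagen gene Col2a1 (-0.76, limma adjusted p = 0.0392). Of 7 neuronal and glial genes 0 passed in any comparison (0 or 1 at an unadjusted p below 0.05 in limma). Of 13 hedgehog pathway genes, Shh, the ligand (-1.40, limma adjusted p = 0.0196), and Cdon, a co-receptor (-0.95, limma adjusted p = 0.00849), were lower with SAG than with cyclopamine, and 5 were higher.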
